A study of Mus musculus with 13 samples.

Results

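The comparison is of germinal vesicle (GV) stage mouse oocytes whose nuclei were of 2 kinds. In NSN (non-surrounded nucleolus) oocytes the chromatin is spread through the nucleus and RNA is still being made. In SN (surrounded nucleolus) oocytes condensed chromatin rings the nucleolus-like body and RNA synthesis has largely stopped. The members were chosen by their labels alone: 6 of the 13 single-oocyte RNA-seq libraries of the series, 3 of NSN GV oocytes and 3 of SN GV oocytes, leaving out the 7 libraries of MII oocytes. Both groups came from C57BL/6 females of 3 to 4 weeks primed with PMSG, with no allele named. All oocytes, SN as well as NSN, had been injected with mRNA for a fusion of mouse Fibrillarin and GFP (FBL–GFP), alongside H2B-mCherry mRNA. They were held at the GV stage for 6 h with Cilostamide and then sorted as NSN or SN by the pattern of FBL–GFP in the nucleolus. The type of each oocyte is therefore a call made on an injected reporter, and no oocyte free of injection is among the libraries. The sources do not say which oocytes shared a female, so each p-value measures the spread between these oocytes.

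A growing oocyte makes and stores the mRNA that carries it through meiosis and the first cell cycles of the embryo, when little or nothing is transcribed. The change from NSN to SN comes at the end of growth, as this transcription ceases, and SN oocytes are the ones known to complete maturation and support development more often. The mRNA of a fully grown oocyte is stable, and much of its regulation is through the length of the poly(A) tail and through translation. SMART-seq2, the method used, primes on poly(A) tails, so it reads tailed mRNA. Levels are given as CPM, the usual share of each library's counts, scaled between libraries by edgeR's TMM factors. A difference in the total mRNA of an oocyte cannot be seen on this scale.

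Total estimated counts lay between 7140404 and 7932425 per oocyte. An oocyte had 13068 ± 332 genes with at least 1 count if NSN and 13131 ± 147 if SN (mean ± SD, n = 3 each), a difference of -63.3 genes (exact permutation test, two-sided, p = 0.9, where 3 against 3 cannot go below 0.1). All 15 oocyte markers were above 10 CPM in every library, and their summed level was 27330 to 33605 CPM in NSN and 25497 to 29417 CPM in SN oocytes. Zp3, a zona pellucida glycoprotein, was at 4247, 5081 and 3646 CPM in NSN and 3641, 3402 and 3902 CPM in SN oocytes. Of 27 granulosa and cumulus markers, 11 had at most 3 counts in every oocyte and 6 of these, Foxl2, Fst, Inhbb, Lhcgr, Ptx3 and Wt1, were at 0 throughout. The summed level of that list was 510 to 602 CPM in NSN and 535 to 731 CPM in SN oocytes, most of it from Serpine2 at 410 to 619 CPM. Cyp19a1, at 44.1 to 73.2 CPM, and Nr5a2, at 10.7 to 22.4 CPM, were also above 10 CPM in every oocyte. Col4a1 was at 8.75 to 15.6 CPM, and Krt8 ran from 0.643 CPM in SN 2 to 24.4 CPM in SN 3. Of 15 markers of theca, stroma, immune and blood cells 8 had at most 3 counts in every oocyte, and the list summed to 127 to 155 CPM in NSN and 85.5 to 148 CPM in SN oocytes, mainly from Pecam1 and C1qb. The list had 19 genes, but its haemoglobin genes had no counts listed, so red blood cells were not checked. One library, NSN 2, stood apart from the other 5, as described below, and results that rest on it are given with and without it.

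Fbl (chr7:28169710-28179269, GRCm38), which encodes Fibrillarin, the methyltransferase of box C/D small nucleolar ribonucleoproteins (snoRNPs), was at 213, 60.9 and 131 CPM in NSN oocytes and at 46.9, 102 and 14.3 CPM in SN oocytes. The groups overlapped, since SN 2 lay above NSN 2, and the spread within a type was wide (SD of log2(CPM + 1) of 0.90 in NSN and 1.39 in SN). The log2 fold change, NSN over SN, was 1.31 (95% interval -0.16 to 2.78). Reads from the injected Fibrillarin mRNA and from the oocyte's own Fbl cannot be told apart in these files. The other core proteins of the same particle differed little: Nop56 was at 97.9, 131 and 105 FPKM in NSN and 132, 103 and 102 FPKM in SN oocytes, and its log2 fold change was 0.01 (-0.44 to 0.46). Nop58 gave 0.01 (-0.51 to 0.53) and Snu13, which binds the snoRNA's kink turn, -0.09 (-0.52 to 0.34). In the sister H/ACA particle, the pseudouridine synthase Dkc1 gave -0.07 (-0.47 to 0.33).

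Across the transcriptome no gene was called between NSN and SN GV oocytes. Of 10839 genes tested with edgeR's quasi-likelihood test and Benjamini-Hochberg adjustment, 0 (0%) had an adjusted p under 0.05 and the lowest adjusted p was 0.99997. DESeq2 called 0 of 15272, with a lowest adjusted p of 0.173 and 284 genes at an unadjusted p under 0.05, and limma on FPKM called 0 of 10839, with 247. An unadjusted p under 0.05 was found for 190 genes (1.75%), with 123 higher in NSN (1.13%) and 67 lower (0.618%). When 1 oocyte was left out, the share at this threshold ran from 0.749% without SN 1 to 6.33% without NSN 3. With no difference in any gene and evenly spread p-values, 542 of the 10839 genes would be due. The 190 fall below this number, so they cannot be taken as a set of differences. Nor does the number show that none of them differs. With a change of at least 1.5-fold required as well, 167 genes remained (1.54%), of which 104 were higher and 63 lower in NSN oocytes. This number turned on single oocytes. It was 651 without NSN 3, 312 without SN 3, 101 without SN 2 and 82 without SN 1, and only 113, 82, 56 and 43 of the 167 were among those genes. The 3 NSN values all lay above the 3 SN values for 363 genes (3.35%) and all below them for 349 (3.22%), 712 in all (6.57%). At 3 against 3, a gene with no difference between the types has a probability of 0.1 of not overlapping. Of these 712 genes, 386 differed by less than 1.5-fold.

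Differences were small where mRNA was abundant. The median size of the log2 fold change was 0.20, a 1.15-fold difference, 9 in 10 genes lay under 0.67 (1.59-fold), and 9424 of the 10839 genes (86.9%) differed by less than 1.5-fold in either direction. The median size was 0.39 at 1 to 10 CPM, 0.19 at 10 to 100 CPM and 0.11 at 100 to 1000 CPM. At least 2-fold differences were fitted for 433 genes (3.99%). Of these 394 had a mean under 10 CPM and 39 had more. The direction was even, with 5542 genes (51.1%) higher in NSN and a median log2 fold change of 0.01.

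**Figure D1:**
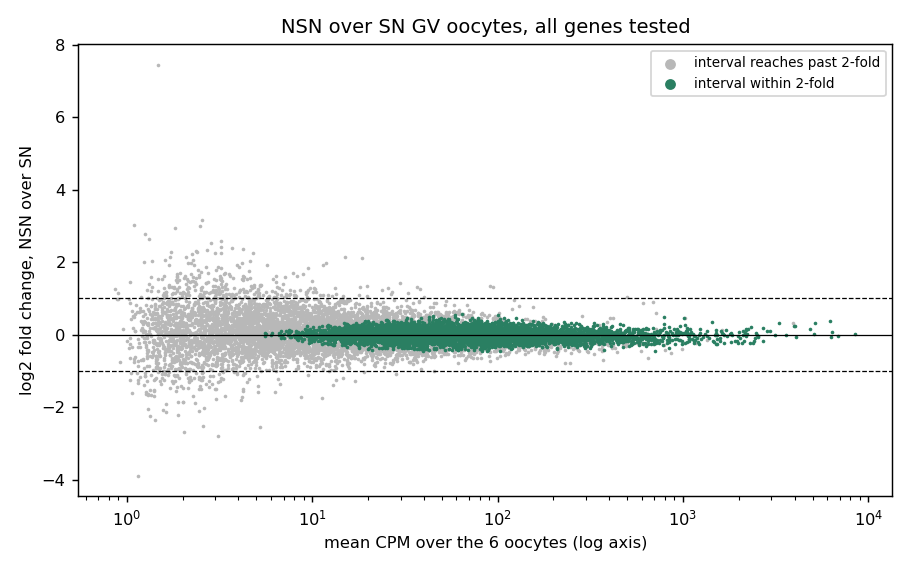
Log2 fold change of each of the 10839 genes tested, NSN over SN GV oocytes, against the mean CPM of the gene over the 6 oocytes (log axis). Each point is a gene, green where its 95% interval lies within 2-fold (5495 genes) and grey where it reaches past (dashed lines at 2-fold). Most genes at 100 CPM or more are green, and few under 10 CPM are. The topmost point is Nanp, which had no count in any SN oocyte, so that its fitted value is no measure of size.

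Missing the threshold does not show that 2 groups are alike, so the size of change the data leave room for was counted. The 95% interval of the fold lay wholly within 2-fold for 5495 genes (50.7%), within 1.5-fold for 1851 (17.1%) and within 4-fold for 9430. The median interval reached 0.75 to each side on the log2 scale, or 1.69-fold. This followed the level of the mRNA: an interval within 2-fold was reached by 89 of 3208 genes at 1 to 10 CPM (2.77%), 3305 of 5299 at 10 to 100 CPM (62.4%), 1995 of 2215 at 100 to 1000 CPM (90.1%) and 106 of 111 above that (95.5%). For nearly all mRNAs under 10 CPM, 6 oocytes left a change of 2-fold within the interval.

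The narrowest intervals belonged to mRNAs with high counts. Nlrp14, a maternal-effect gene of the NLRP family, was at 6847, 6076 and 6785 CPM in NSN and 5850, 6539 and 6293 CPM in SN oocytes, with a log2 fold change of 0.08 (-0.20 to 0.35). Surf4, an endoplasmic reticulum cargo receptor, was at 961, 904 and 871 CPM against 921, 924 and 901 CPM, with -0.00 (-0.30 to 0.29). In both genes the values of the types were interleaved. Gyg, which primes glycogen, gave -0.00 (-0.31 to 0.31), Mat2b, a regulatory subunit of S-adenosylmethionine synthetase, -0.01 (-0.32 to 0.30), and the stress granule protein G3bp2 0.04 (-0.27 to 0.36). Of the 10 narrowest genes Padi6 (chr4:140727355-140742643), needed for the cytoplasmic lattices of the oocyte, had an interval that left out 0: it was at 5546, 6080 and 5706 CPM in NSN and 4094, 4961 and 4719 CPM in SN oocytes. The groups did not overlap, and the log2 fold change was 0.33 (0.04 to 0.62). Its unadjusted p was 0.030 by edgeR and 0.088 by DESeq2. By edgeR without 1 oocyte it was 0.018 (NSN 1), 0.069 (NSN 2), 0.063 (NSN 3), 0.13 (SN 1), 0.048 (SN 2) and 0.063 (SN 3). Whether the interval left out 0 thus depended on the fit.

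The 16 genes with the smallest unadjusted p among those at 10 CPM or more whose groups did not overlap are shown as the upper end of the differences. They were picked by this contrast, so their values describe and do not test it. All 16 kept their direction when each oocyte was left out in turn, but their choice as genes without overlap all but fixed this in advance. Of the 16, 5 kept an unadjusted p under 0.05 every time: Otx1, Gpr3, Dock11, Zfp939 and Kyat3. The widest gap among the 8 that were higher in NSN oocytes was in Otx1 (chr11:21994764-22002897), a homeobox transcription factor, at 31.1, 18.2 and 41.1 CPM in NSN and 2.10, 8.23 and 10.3 CPM in SN oocytes, with a log2 fold change of 2.12 (0.87 to 3.38). The lowest NSN oocyte was thus well above the highest SN oocyte. Gpr3 (chr4:133209340-133212536), the receptor that keeps cyclic AMP high and holds the oocyte in meiotic arrest, was tight within each type. It was at 77.1, 75.9 and 68.9 CPM in NSN and 47.1, 49.8 and 50.1 CPM in SN oocytes, with a log2 fold change of 0.59 (0.18 to 1.01).

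The other 6 of the genes that were higher in NSN oocytes had log2 fold changes of 0.53 to 0.78. They were Fastkd3, a mitochondrial RNA-binding protein, the ubiquitin ligase Trim26, Mat1a, which makes S-adenosylmethionine, Ctps2, a CTP synthase, Fam83d, a spindle protein, and Ncstn, a subunit of gamma-secretase. Trim26 was at 73.3, 64.5 and 71.2 CPM in NSN and 46.7, 47.1 and 48.9 CPM in SN oocytes, and Mat1a was at 83.5, 79.2 and 67.9 CPM against 48.3, 53.4 and 54.1 CPM. Within a type Trim26 was as tight as Gpr3, and none of the 6 reached a fitted 2-fold change.

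Among the 8 genes that were lower in NSN oocytes, Dock11 (chrX:35888832-36076562), an activator of the small GTPase Cdc42, was at 8.03, 7.19 and 8.66 CPM in NSN and 12.5, 25.3 and 18.7 CPM in SN oocytes, with a log2 fold change of -1.24 (-2.05 to -0.44). Gcnt2 (chr13:40859754-40960892), which branches glycan chains, was at 7.01, 5.02 and 9.35 CPM against 15.0, 12.3 and 28.9 CPM, with -1.39 (-2.37 to -0.42). Kyat3 (chr3:142701051-142746870), a kynurenine aminotransferase, was at 22.1, 9.90 and 23.0 CPM against 41.4, 32.5 and 41.9 CPM, with -1.08 (-1.86 to -0.29). In these 3 genes all SN values were above all NSN values, and the lowest value was that of NSN 2. The others were the zinc finger genes Zfp939, Zfp940 and Zfand5, Sycp2 of the synaptonemal complex, and the ribonuclease Rnaset2b, at 607, 519 and 664 CPM against 810, 792 and 842 CPM. Of these, Zfp939 is annotated as a transcribed unprocessed pseudogene. Rnaset2b, Zfp939 and Zfp940 have relatives in the genome, and RSEM shares out reads that map to several genes. How far this touched their values was not tested.

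**Figure D2:**
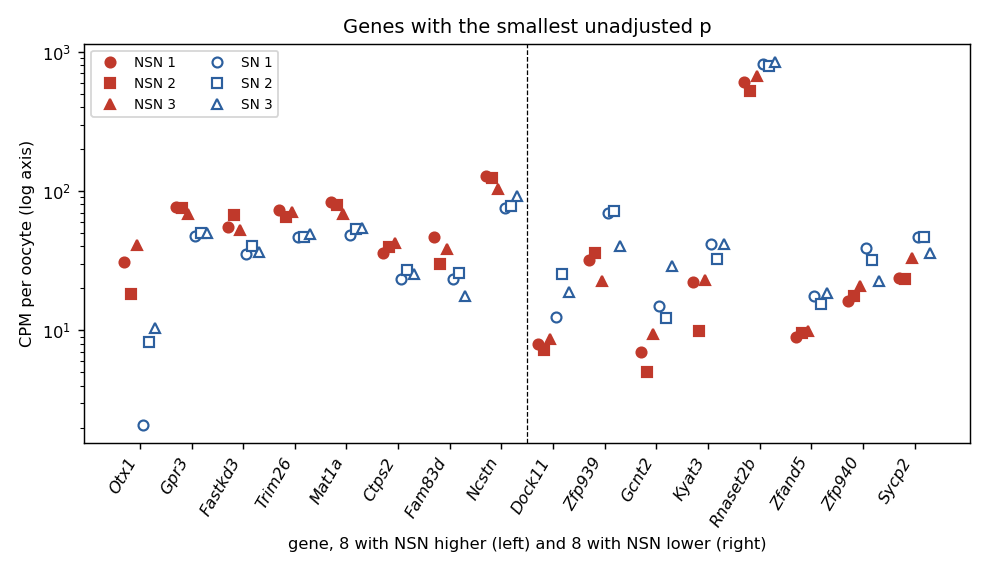
CPM in each oocyte (log axis) of the 8 genes higher and the 8 genes lower in NSN GV oocytes with the smallest unadjusted p, at 10 CPM or more and with groups that did not overlap. Filled red symbols are the 3 NSN and open blue symbols the 3 SN oocytes. Otx1 has the widest gap, from 10.3 CPM in SN 3 to 18.2 CPM in NSN 2, while Gpr3 and Trim26 differ less but lie close together within each type.

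Presence or absence separated the types for 6 of the 18939 genes in the count table, taking at least 10 counts in all 3 oocytes of one type and at most 3 in each of the other. In NSN oocytes these were Nanp, a phosphatase of sialic acid synthesis, with 39, 15 and 13 counts against none, Star, the steroidogenic cholesterol carrier and a gene of the granulosa list, with 10, 10 and 12 counts against 2, 1 and 2, Pcdh10 and Vmac. In SN oocytes they were Tap2, a peptide transporter of antigen presentation, with 11, 28 and 10 counts against 3, 0 and 0, and Rell2, with 10, 10 and 11 counts against none. All 6 were scarce. With 1 oocyte left out the number was 12 without NSN 1, 11 without NSN 2 and 23 without NSN 3. It was 12 without SN 1, 16 without SN 2 and 9 without SN 3. The rule then has fewer oocytes to meet, so the number cannot fall, and the rise by itself says nothing about the oocyte left out. By contrast 9491 genes had at least 10 counts in all 6 oocytes and 5365 had at most 3 in all 6.

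Pairs of oocytes did not sort by type. For 7625 genes with a mean of at least 10 CPM, the closest of all 15 pairs of oocytes was a mixed one, NSN 3 with SN 2, in which 1.23% of genes differed by more than 2-fold. Next came SN 1 with SN 2 at 1.48% and NSN 3 with SN 1 at 1.55%. The most distant pair were both NSN oocytes, NSN 2 with NSN 3, at 18.5%. Among pairs of SN oocytes 1.48% to 5.21% of genes differed by more than 2-fold, among pairs of NSN oocytes 8.24% to 18.5%, and between the types 1.23% to 18.0%. NSN 3 thus lay beside SN 1 and SN 2, and NSN 1 lay nearest to SN 3, at 3.80%.

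The spread was larger among NSN oocytes. The SD of log2(CPM + 1) over 3 oocytes was larger in NSN for 7739 genes (71.4%) and larger in SN for 3100, with medians of 0.40 and 0.25. The share was 53.4% without NSN 2, 61.4% without NSN 1 and 60.6% without NSN 3. Each of these sets an SD over 2 NSN oocytes against an SD over 3 SN oocytes, which by itself tends to lower the share. They cannot be compared directly with 71.4%. In every range of abundance from 1 CPM up, the median SD was above what counting alone gives. At 100 to 1000 CPM it was 0.27 in NSN and 0.15 in SN oocytes, against 0.04 from counting, and at 1 to 10 CPM it was 0.55 and 0.43 against 0.26. Reads were amplified by PCR with no molecular identifiers named, so counting error is a lower limit for technical error, and the share of the spread that is technical was not tested.

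**Figure D3:**
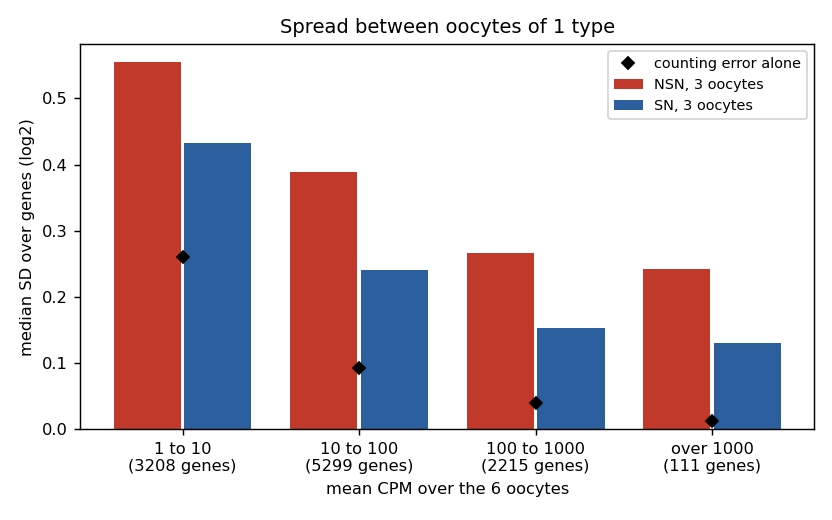
Median SD of log2(CPM + 1) between the 3 NSN (red bars) and the 3 SN (blue bars) GV oocytes, over genes grouped by their mean CPM. Black diamonds are the median SD that counting error alone would give. Bars are taller for NSN in all 4 groups of genes, 0.39 against 0.24 at 10 to 100 CPM, and every bar is above its diamond.

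NSN 2 was the oocyte set apart. Of the 7625 genes it had 495 that were more than 2-fold below all other oocytes and 2 that were more than 2-fold above, and NSN 1 had 25 and 49, while NSN 3 and the SN oocytes had 6 to 12 genes each in both directions together. The genes low in NSN 2 came from long transcripts. Their longest annotated transcript had a median of 5690 bases and exceeded 4000 bases for 86.2%, against 3464 bases and 39.4% for all 7625 genes. The extreme was Xrn1, the cytoplasmic exonuclease that degrades decapped mRNA, with a transcript of 10256 bases. It was at 32.8, 1.90 and 39.2 CPM in NSN and 30.03, 46.3 and 25.9 CPM in SN oocytes.

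Deviations by transcript length differed between oocytes and cut across the types. Protein-coding genes with transcripts up to 1000 bases (406 genes) deviated from their 6-oocyte mean by a median of -0.18, 0.44 and -0.24 in NSN 1 to 3 and by 0.05, -0.19 and 0.14 in SN 1 to 3, on the log2 scale. Those over 8000 bases (698 genes) deviated by 0.07, -0.45 and 0.21 in NSN and 0.11, 0.23 and -0.02 in SN oocytes. The sign was opposite in NSN 2 and in NSN 3, and SN 2 followed NSN 3. The median log2 fold change, NSN over SN, was 0.04 for the short class and -0.12 for the long class with all oocytes, and -0.24 and 0.04 without NSN 2. Both directions hence turned with that oocyte. The part of cDNA length and RNA quality in these deviations was not tested.

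**Figure D4:**
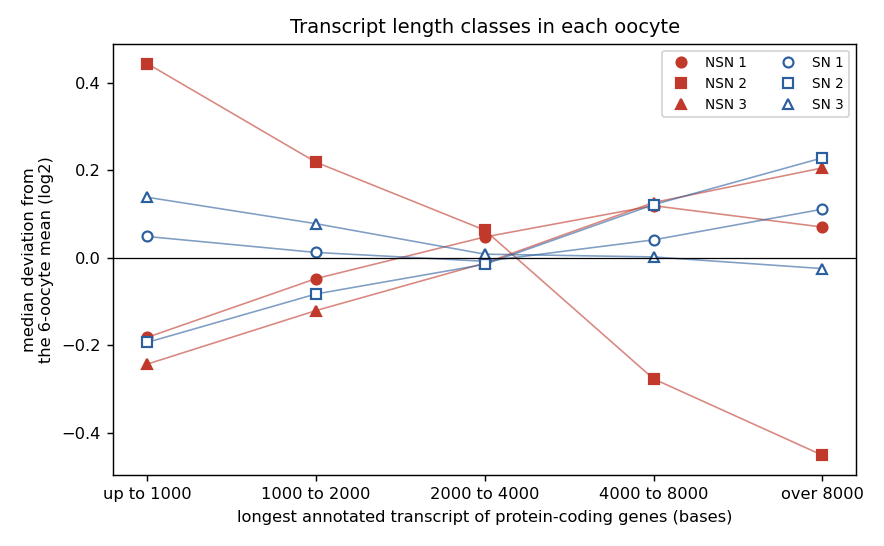
Median deviation of protein-coding genes from their mean over the 6 oocytes (log2), by length of the longest annotated transcript, with a line for each oocyte (red NSN, blue SN). NSN 2 runs from 0.44 in the shortest to -0.45 in the longest class, NSN 3 and SN 2 run the other way, and the types are not separated.

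Base composition gave a small difference that kept one direction. Of 4785 protein-coding genes whose transcript had over 50% GC, 2899 had a higher level in NSN oocytes, with a median log2 fold change of 0.07, and 233 did not overlap with NSN higher (4.87%) against 98 with NSN lower (2.05%), beside 3.35% and 3.22% over all genes tested. Of 639 genes under 40% GC, 212 had a higher level in NSN, with a median of -0.11, and 7 (1.10%) against 38 (5.95%) did not overlap. The medians kept their sign when any 1 oocyte was left out, from 0.03 to 0.09 for GC-rich and from -0.15 to -0.08 for GC-poor genes. By oocyte, the deviation of the GC-rich class was 0.11, 0.05 and -0.01 in NSN and -0.04, -0.02 and 0.02 in SN, so that NSN 3 lay below SN 3 and the types overlapped. The deviation of the GC-poor class was -0.04, -0.04 and -0.01 in NSN and 0.12, 0.08 and 0.01 in SN, and the types did not overlap. The effect of GC content on amplification was not tested. The 346 genes of the X chromosome had a median of -0.05, and 152 of them had a higher level in NSN oocytes. This median also kept its sign without any 1 oocyte, from -0.09 to -0.04. The deviation of the X class was -0.004, -0.050 and 0.014 in NSN and 0.103, 0.052 and 0.020 in SN, without overlap. The gap, between 0.014 in NSN 3 and 0.020 in SN 3, was narrow. Of the X genes 10 (2.89%) did not overlap with NSN higher and 13 (3.76%) with NSN lower, near the 3.35% and 3.22% over all genes tested.

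By function, 21 classes of 14 to 106 tested genes were drawn up, covering 1178 genes. No member of any class was called. Class medians of the log2 fold change ran from -0.10 to 0.14, against 0.01 for all genes, and 19 of the 21 changed sign when some oocyte was left out. For these classes the number not overlapping is to be read against 3.35% of all genes with NSN higher and 3.22% with NSN lower.

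The genes by which the nucleolus makes ribosomes had class medians near 0. Of 104 genes for snoRNPs and rRNA processing 54 had a higher level in NSN, the median log2 fold change was 0.00, and 83 had an interval within 2-fold, 79.8% against 50.7% of all genes. The class also had more counts per gene, with a median of 72.0 CPM against 27.6 CPM for all genes. Npm1, nucleophosmin, was at 569, 797 and 703 CPM in NSN and 814, 751 and 704 CPM in SN oocytes, and Utp4 of the small subunit processome gave 0.08 (-0.26 to 0.41). For RNA polymerase I and its factors 11 of 19 had a higher level in NSN, with a median of 0.03, and none had groups that did not overlap. Polr1d, a subunit shared by RNA polymerases I and III, was at 342, 486 and 315 CPM against 390, 312 and 419 CPM. In contrast to the nucleolar class, 9 of the 19 had an interval within 2-fold. The 80 ribosomal protein genes had a median of 0.04, 0 did not overlap in either direction, and 73 were within 2-fold. Their deviation was 0.50 in NSN 2 and -0.25 and -0.27 in the other NSN oocytes, and their median log2 fold change was -0.29 without NSN 2.

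RNA polymerase II, which is active in NSN and quiet in SN oocytes, likewise had a class median near 0. Of 71 genes for its subunits and general factors 33 had a higher level in NSN, the median was -0.02, 50 were within 2-fold, and 2 in each direction did not overlap. Polr2c was at 672, 994 and 790 CPM in NSN and 859, 820 and 860 CPM in SN oocytes. Among these genes the largest fold change without overlap was that of Ccnt1, cyclin T of the elongation factor P-TEFb, at 86.2, 123 and 87.2 CPM against 75.8, 75.5 and 77.7 CPM, with a log2 fold change of 0.37 (-0.09 to 0.83). For 96 splicing genes the median was -0.02 and 74 were within 2-fold.

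Genes of mRNA storage, polyadenylation and decay, which act on the maternal stock, had a median of -0.05, with 27 of 70 at a higher level in NSN. The sign held without any 1 oocyte, from -0.18 to -0.01. Btg4, an adaptor for maternal mRNA deadenylation, was at 1726, 2371 and 2199 CPM in NSN and 2172, 2228 and 1969 CPM in SN oocytes. Cpeb1, the regulator of cytoplasmic polyadenylation, gave -0.08 (-0.48 to 0.32). Values of both were interleaved between the types. In the subcortical maternal complex and other maternal-effect genes 16 of 21 had a higher level in NSN, the median was 0.09 (0.05 to 0.08 without any 1 oocyte), and 3, Padi6 among them, did not overlap with NSN higher. The intervals of 19 of the 21 were within 2-fold.

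Of 21 genes of cyclic AMP signalling 9 had a higher level in NSN, and Gpr3 did not overlap with NSN higher. Prkar2a, a regulatory subunit of protein kinase A, was 1 of 2 that did not overlap with NSN lower, at 24.2, 38.4 and 40.3 CPM in NSN and 50.4, 60.2 and 48.2 CPM in SN oocytes, with -0.63 (-1.21 to -0.05). Pde3a, the phosphodiesterase that Cilostamide inhibits, was at 222, 59.8 and 237 CPM against 209, 210 and 149 CPM, so its spread came from NSN 2, and its transcript is long, with 12302 bases. The interval of its fold lay within 2-fold only without NSN 2 among the fits that left out an oocyte. For cell cycle entry 18 of 38 had a higher level in NSN and the median was -0.01. Ccnb1, cyclin B1, was at 1559, 1845 and 1526 CPM in NSN and 1577, 1734 and 1565 CPM in SN oocytes, and Cdc25a, a phosphatase that activates CDKs, did not overlap with NSN lower, at -0.70 (-1.31 to -0.09). The 48 genes of spindle, checkpoint and cohesion had the lowest class median, -0.10 (-0.22 to 0.05 without any 1 oocyte), with 0 that did not overlap.

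For the zona pellucida and secreted factors of the oocyte, 7 of 14 had a higher level in NSN and 13 of 14 had an interval within 2-fold. Gdf9, a growth factor for granulosa cells, was at 7041, 8359 and 5746 CPM in NSN and 4551, 5044 and 6722 CPM in SN oocytes, with 0.37 (-0.06 to 0.81). SN 3 lay above NSN 3, and the groups overlapped. Its relative Bmp15 gave -0.03 (-0.42 to 0.36). Oocyte transcription factors had a median of 0.06. Obox2 and Obox1, homeobox genes that overlap in the annotation, gave -0.17 (-0.57 to 0.23) and -0.26 (-0.68 to 0.16).

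Of the chromatin and DNA methylation enzymes 42 of 87 had a higher level in NSN, the median was -0.01, and 36 were within 2-fold. Dnmt1, the maintenance DNA methyltransferase, was at 2891, 742 and 1499 CPM in NSN and 1699, 1458 and 1504 CPM in SN oocytes, with 0.14 (-0.76 to 1.04). Both extremes were NSN oocytes. In DNA damage signalling and repair 48 of 106 had a higher level in NSN, 77 were within 2-fold, and 3 did not overlap with NSN higher and 6 with NSN lower. Ube2t, the ubiquitin-conjugating enzyme of the Fanconi pathway, was at 559, 770 and 694 CPM against 826, 784 and 733 CPM, or -0.21 (-0.58 to 0.16).

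In metabolism, 49 of 74 genes of organic and fatty acid catabolism and 42 of 64 of protein glycosylation had a higher level in NSN, with medians of 0.11 and 0.09. In both classes NSN 1 and SN 3 were the 2 highest oocytes, and their medians fell to -0.01 and -0.05 in the lowest of the fits that left out an oocyte. For the catabolic genes 1 did not overlap with NSN higher and 3 with NSN lower, Kyat3 among the latter. For glycosylation these were 0 and 2, Gcnt2 among them. Ldhb, lactate dehydrogenase B, was at 4552, 6084 and 4726 CPM in NSN and 4578, 4534 and 4648 CPM in SN oocytes. The respiratory chain had a median of 0.09, with 69 of 77 within 2-fold, and NSN 2 was again highest, with a deviation of 0.55. Its median was -0.23 without NSN 2. Mitochondrially encoded genes were not analysed here.

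Protein quality control and translation had class medians near 0 as well. Proteasome genes had a median of -0.05 with 33 of 36 within 2-fold, translation factors -0.02 with 43 of 52, and chaperones -0.02 with 40 of 59. The chaperone gene with the most counts was Dnajb14, at 2596, 6700 and 3756 CPM in NSN and 3959, 1849 and 4559 CPM in SN oocytes, values that crossed the types. Stress and apoptosis genes had the highest class median, 0.14, and 20 of 30 had a higher level in NSN, but the deviation was 0.49 in NSN 1 and -0.11 to -0.00 in the other 5 oocytes, and 9 of 30 were within 2-fold. Bcl2l10, an anti-apoptotic gene of the oocyte, was at 3053, 4686 and 4185 CPM against 4721, 4065 and 3780 CPM.

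**Figure D5:**
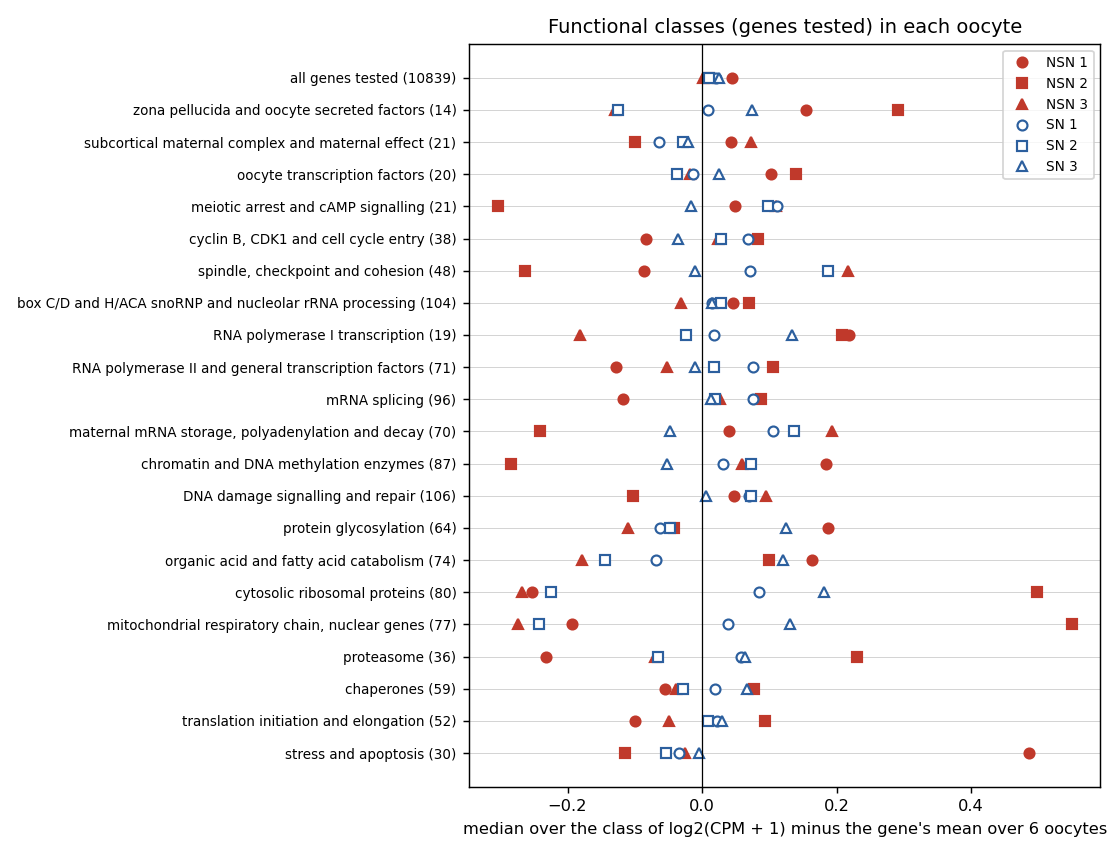
Median deviation of each functional class from the 6-oocyte mean of its genes (log2 scale), with a symbol for each oocyte (filled red NSN, open blue SN) and the number of genes tested in parentheses. NSN 2 is an extreme in most classes, reaching 0.55 in the respiratory chain, NSN 1 reaches 0.49 in stress and apoptosis, and red and blue symbols are mixed in every class.

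Some abundant mRNAs varied widely along an order that ran across the types. By mean SD within a type, the 5 most variable genes at 100 CPM or more were Ppp2r5a, Ppip5k2, Snrnp200, Xdh and Tug1. Ppp2r5a, a regulatory subunit of protein phosphatase 2A, was at 1325, 569 and 133 CPM in NSN and 174, 110 and 698 CPM in SN oocytes. Xdh, xanthine dehydrogenase, was at 1287, 801 and 270 CPM against 313, 197 and 779 CPM. Both genes were high in NSN 1, NSN 2 and SN 3 and low in NSN 3, SN 1 and SN 2. Ddx4, a germ cell RNA helicase of the marker list, had the same 3 oocytes highest, at 171, 91.8 and 44.0 CPM in NSN and 65.9, 35.2 and 119 CPM in SN oocytes. The other 3 genes were low in NSN 2 alone. Snrnp200, the helicase of the U5 snRNP, was at 127, 14.1 and 178 CPM against 115, 144 and 97.7 CPM. Ppip5k2, an inositol phosphate kinase, and Tug1, a long noncoding RNA, had their lowest values there too, at 20.7 and 14.1 CPM.

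Noncoding transcripts and features listed with FPKM alone gave a single call. Among the genes with counts, 74 of long noncoding types had a median log2 fold change of 0.00, which was -0.09 without NSN 2 and 0.14 without NSN 3. Of these genes 0 did not overlap with NSN higher and 2 (2.70%) with NSN lower, beside 3.35% and 3.22% over all genes tested. A further 30747 features were listed with FPKM values alone, and 1771 of these had a mean of at least 1 FPKM and were tested with limma on log2(FPKM + 1). One (0.0565%) was called. Unadjusted p was under 0.05 for 44 (2.48%), and 547 had an interval within 2-fold (30.9%). The oocyte types did not overlap for 119 (6.72%), of which 35 (1.98%) had NSN higher and 84 (4.74%) had NSN lower. Not all of the 1771 are noncoding. Of them 294 are annotated as protein-coding, with a median log2 difference of -0.06, and 68 were not found in the annotation by symbol. Of the 294, 5 did not overlap with NSN higher and 16 with NSN lower. The 489 lincRNAs had a median log2 difference of -0.02, and 7 against 25 of them did not overlap with NSN higher and lower. The median was 0.05 for the 304 processed pseudogenes and 0.01 for the 233 antisense transcripts. TEC features, loci that the annotation lists as still to be tested by experiment, had a higher level in NSN for 81 of 115, with a median of 0.13, beside 910 of 1771 (51.4%) over all these features. Of the TEC features 2 did not overlap with NSN higher and 3 with NSN lower.

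The feature called was Gm47551, an antisense transcript at chr13:98801172-98803736 (GRCm38), with 22.8, 11.2 and 31.6 FPKM in NSN oocytes and listed at 0 in all 3 SN oocytes (adjusted p = 0.0240 by limma). It was still called without NSN 2 but not without NSN 1, NSN 3, SN 1, SN 2 or SN 3. Without a strand-specific step its reads cannot be told from those of a gene on the other strand. Next in order, Gm8817, a lincRNA, was at 9.29, 22.7 and 26.0 FPKM against 0, 2.44 and 0.24 FPKM and was not called (adjusted p = 0.493 by limma). The most abundant of these features, CT010467.1, is annotated as rRNA and was at 14212, 20082 and 11014 FPKM in NSN and 17337, 14584 and 16253 FPKM in SN oocytes, with the highest and the lowest value both in NSN. Since cDNA was primed on poly(A), this value does not measure the rRNA content of an oocyte.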

How the data were processed

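Single mouse oocytes were sequenced with SMART-seq2, and groups were taken from the deposited labels. Per the labels and the study's methods the authors trimmed reads with Trim Galore 0.4.4, mapped them to mm10 with Bowtie2 2.3.5 and quantified genes with RSEM 1.2.28. The expected counts deposited by the authors share out reads that map to several genes, so 14.8% to 17.3% of the values of a GV library were not whole. They were rounded here. FPKM values deposited by the authors are scaled by gene length and library size and cover more features. Counts of the MII libraries entered only the fit of all 13 libraries.

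Genes were filtered with filterByExpr, scaled by TMM and tested with edgeR 4.0.16 (R 4.3.3, quasi-likelihood, no covariate), with Benjamini-Hochberg adjustment over all genes tested. Log2 fold changes are NSN over SN. Intervals are 95%, from the quasi-likelihood F and its degrees of freedom, and hold for 1 gene at a time. Features with FPKM alone were tested with limma 3.58.1 (trend, log2(FPKM + 1), mean FPKM of at least 1). DESeq2 1.42.0 was an alternative. Counting error alone covers only part of the error. Depth was 7140404 to 7932425 counts per oocyte. No 2 libraries were copies of each other. Transcript length, type, GC content and coordinates came from GENCODE M21 (GRCm38), which held 18894 of the 18939 symbols with counts.

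Genes were named by rule: Fbl and oocyte markers, the 2 most abundant members of each class and its largest change without overlap, the 8 genes each way with the smallest unadjusted p without overlap at 10 CPM or more, the 10 narrowest intervals and the 5 most variable genes at 100 CPM or more. Beyond the rule, chosen after their values were seen, are the other snoRNP proteins, the extreme gene Xrn1, Ddx4 and the features with FPKM alone. The comparison and the gene classes were chosen with earlier results of these data known, and a gene may be in more than 1 class. Deviations are of log2(CPM + 1). Steps were tested on simulated data. One of the genes with the narrowest intervals is not reported here. Imaging, maturation rates and raw reads were not analysed here.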

Additional observations from a re-analysis of the deposited data

How the results depend on the processing

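In all 13 alternative fits 0 genes were called, with unadjusted p under 0.05 for 58 to 709 genes, and the number of genes with an interval within 2-fold stayed between 4266 and 7258. The number at an unadjusted p under 0.05 and 1.5-fold, 167, was 271 with DESeq2 and 277 with no filter on low counts, where 15272 and 15276 genes were tested in place of 10839, and it ran from 82 to 651 when 1 oocyte was left out, highest without NSN 3. With the replicate number as a block it was 58. The labels give replicate numbers but no pairing, and oocytes of the same number deviated in opposite directions (correlations of -0.219, -0.215 and -0.469), so the block has no basis in the design, and the cause of the lower number was not tested. The median size of the log2 fold change, 0.20, was 0.29 with DESeq2 and 0.29 with no filter, which bring in scarce genes, and 0.20 to 0.30 without 1 oocyte. The share of genes with a larger SD in NSN oocytes ran from 53.4% to 79.3% without 1 oocyte, lowest without NSN 2. These fits set an SD over 2 oocytes against an SD over 3, which by itself tends to shift the share. Features with FPKM alone gave 0 to 1 calls, and genes present in one type only 9 to 23, without 1 oocyte, where the rule of presence is easier to meet. The latter alternative and the leave-one-out medians of length, GC and chromosome classes were chosen after seeing the data. The difference in genes detected turned from -63.3 to 66.3 at a minimum of 10 counts (exact permutation p = 0.8). For the 30 named genes whose groups did not overlap, all 390 refitted log2 fold changes kept their direction and none was called. Choosing genes without overlap all but fixed the direction in advance, so this does not test it. For 58 other named genes the interval moved across 2-fold in 15 of 754 refits inward and in 2 outward. At 1 to 10 CPM, 89 of 3208 genes had an interval within 2-fold, and the median SDs on the log2 scale were 0.55 in NSN and 0.43 in SN oocytes, against 0.26 from counting error.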
